A study of Mus musculus with 4 samples.

Results

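Voltage-gated sodium channel subunits were followed across the polyadenylated RNA of 4 mouse heart libraries. The set was chosen by gene symbol and holds 8 of the 23420 genes counted: the alpha subunits Scn1a, Scn3a, Scn4a, Scn7a and Scn10a and the beta subunits Scn2b, Scn3b and Scn4b. All 8 had an entry. No measured value entered the choice, although results of these data were known when it was made. Each library is labelled as heart of an untreated wild-type C57BL/6J male at 12 weeks of age, and there is no second genotype, treatment or time point. The tissue label reads as the whole heart, whereas the protocol names the frozen tip of the ventricles as the source of the RNA.

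Sodium channels carry the fast inward current that starts the action potential of working heart muscle, conduction fibres, nerve and skeletal muscle. An alpha subunit forms the pore, its voltage sensors and its inactivation gate. A beta subunit is a small membrane protein with an immunoglobulin-like outer domain that shifts gating, surface delivery and cell adhesion. Some subunits are best known from nerve and others from muscle, so their levels in ventricle describe how far the neuronal forms are present there. Scn7a is an unusual member, a channel known for sensing extracellular sodium and not for opening with voltage.

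Between 10523709 and 15359296 reads were assigned to genes in each library. Levels are given as CPM, counts per 1000000 reads assigned to genes in that library, and limits of 95% on a single library are exact Poisson limits that cover counting error only. Libraries 2 and 3 went against their male label: the female transcript Xist was counted 5, 1897, 1806 and 19 times in libraries 1 to 4, and Y-linked Ddx3y 341, 0, 1 and 437. Values without libraries 2 and 3 are given beside the results that they move by over 1.5 times. Markers of cardiomyocytes summed to between 78784 and 89594 CPM. Of the atrial markers, the light chain Myl7 had 1 to 7 counts per library, Myl4 stood at 2.93 ± 0.429 CPM and the natriuretic peptide Nppa at 139.7 ± 8.15 CPM (SD, n = 4). Because the RNA is of bulk tissue, more cells of a type and more RNA per cell cannot be told apart.

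On chromosome 9, Scn2b (chr9:45117782-45130070, plus strand) and Scn4b (chr9:45138395-45154152, plus strand) lie 8.32 kilobases apart by the GENCODE M21 annotation of GRCm38 (mm10). They differed 13.0-fold in level per length, so the start-site windows of both are shown, with that of Scn4a, the most abundant of the 8. Each window runs from 250 bases before to 50 bases after a RefSeq start on GRCm38.p6. Capitals mark CG dinucleotides, which are dense at many broadly active promoters and sparse at many tissue-restricted ones. The window of Scn2b is chr9:45117626-45117925 on the plus strand, that of Scn4b chr9:45138374-45138673 on the plus strand, and that of Scn4a chr11:106349341-106349640 on the minus strand.
Scn2b: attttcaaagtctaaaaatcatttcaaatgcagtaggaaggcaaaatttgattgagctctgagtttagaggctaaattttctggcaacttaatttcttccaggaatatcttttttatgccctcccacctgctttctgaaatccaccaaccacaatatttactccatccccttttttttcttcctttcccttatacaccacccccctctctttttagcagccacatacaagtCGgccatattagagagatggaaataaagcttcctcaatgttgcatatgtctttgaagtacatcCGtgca
Scn4b: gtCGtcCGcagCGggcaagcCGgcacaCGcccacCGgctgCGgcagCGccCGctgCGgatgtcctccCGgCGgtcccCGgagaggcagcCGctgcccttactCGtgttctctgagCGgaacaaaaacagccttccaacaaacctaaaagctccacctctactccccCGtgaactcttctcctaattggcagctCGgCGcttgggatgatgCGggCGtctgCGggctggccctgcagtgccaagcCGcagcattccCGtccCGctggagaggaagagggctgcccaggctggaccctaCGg
Scn4a: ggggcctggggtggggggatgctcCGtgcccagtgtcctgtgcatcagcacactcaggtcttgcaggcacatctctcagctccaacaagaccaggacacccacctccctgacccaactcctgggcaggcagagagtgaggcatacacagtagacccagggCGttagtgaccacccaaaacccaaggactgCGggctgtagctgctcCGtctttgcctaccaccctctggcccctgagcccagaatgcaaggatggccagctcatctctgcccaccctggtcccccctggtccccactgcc

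The pair of neighbours differed in composition. The Scn2b window held 2 CG dinucleotides and 38.3% G or C, and the Scn4b window 26 CG dinucleotides and 66.3% G or C. Over 32851 RefSeq windows of 300 bases the median was 7 CG dinucleotides and 52.7% G or C, and 16.9% of windows held at least as many CG dinucleotides as that of Scn4b. The Scn4a window was rich in G or C (63.0%) yet held 4 CG dinucleotides. Windows were found for 6 of the 8 genes, and those of Scn1a, Scn7a and Scn10a held 5, 3 and 11 CG dinucleotides. The RefSeq start of Scn4a lies 3.90 kilobases inside the gene as GENCODE M21 draws it, that of Scn4b 0.229 and that of Scn2b 0.094 kilobases inside. Nearly all of the Scn4b window, with its CG dinucleotides, thus lies within the gene by that annotation. Whether transcription in these hearts began at these starts was not measured.

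Scn4a, the alpha subunit best known from skeletal muscle, was the most abundant of the 8. In libraries 1 to 4 it had 1072, 1005, 537 and 1142 counts, which is 74.4, 72.2, 51.0 and 74.4 CPM. The limits of libraries 1, 2 and 4 overlapped, and library 3 stood below them: its limits ran from 46.8 to 55.5 CPM, while the lowest limit of the other 3 was 67.8 CPM. The mean was 68.0 ± 11.4 CPM (SD, n = 4), which placed Scn4a above 88.1% of the genes detected. It supplied 70.8, 68.9, 62.7 and 68.7% of the counts of the 8 genes. Without library 3 the mean was 73.6 CPM, and without libraries 2 and 3 it was 74.4 CPM.

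Markers of fast skeletal muscle were low. The whole list of 8 genes summed to 4.09, 4.89, 4.85 and 3.65 CPM in libraries 1 to 4, and 1 of the 8, the troponin Tnni2 (1.53 ± 0.225 CPM, SD, n = 4), reached a mean of 1 CPM. The fast myosin Myh4 was next at 0.975 ± 0.323 CPM (SD, n = 4). The myogenic factor Myod1 had 0, 1, 0 and 0 counts and the fast-fibre calcium buffer Pvalb 1, 0, 0 and 0. The sum of this list was lowest in library 4, while Scn4a was lowest in library 3. Few counts lie behind the sum, with 26, 19, 14 and 25 for Tnni2. The part of skeletal muscle in the counts of Scn4a was not tested. In GENCODE M21 the gene lies at chr11:106318592-106353288 on the minus strand, and none of its 7041 exon bases overlaps an exon of another gene. That holds for all 8 genes, which matters because the reads do not keep their strand.

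Scn7a, the sodium-sensing member, was second in level among the 5 alpha subunits described. Its counts in order of library were 150, 107, 127 and 199, giving 10.4, 7.69, 12.1 and 13.0 CPM. Library 2 was lowest, and its upper limit of 9.29 CPM lay under the lower limits of libraries 3 (10.1 CPM) and 4 (11.2 CPM). The mean was 10.8 ± 2.32 CPM (SD, n = 4), or 11.8 CPM without library 2.

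Glial and stromal markers were set beside Scn7a because the gene is also known from Schwann cells. Schwann and satellite glia markers summed to 18.7, 15.3, 15.96 and 17.2 CPM, with 6 of 9 genes at 1 CPM or more and none at 0 in every library. The myelin gene Mbp (4.36 ± 1.18 CPM, SD, n = 4) led that list. Fibroblast markers summed to between 439 and 488 CPM, led by the matrix proteoglycan Dcn (237 ± 39.6 CPM, SD, n = 4) and Col1a1 (167 ± 18.2 CPM), with 5 of 5 at 1 CPM or more. Smooth muscle and pericyte markers summed to between 529 and 631 CPM, led by Acta2 (229 ± 13.1 CPM, SD, n = 4) and Rgs5 (191 ± 27.9 CPM), again with 5 of 5 at 1 CPM or more. The sums of all 3 lists were lowest in library 2, as Scn7a was, but most of their genes taken singly were not: 3 of 9 glial, 1 of 5 fibroblast and 2 of 5 smooth muscle genes were lowest there. Sums of the endothelial, macrophage and atrial markers were lowest in library 2 too. Singly, 3 of 5 endothelial and 4 of 5 macrophage genes were lowest there. Of the 4 atrial genes, Nppa, which made up most of the sum, was lowest there, and the other 3 were highest there. The endothelial sum, 914 to 948 CPM, followed the libraries in the same sequence as Scn7a, which the glial, fibroblast and smooth muscle sums did not. That sum spanned 1.04-fold, and none of its 5 genes followed the sequence singly. Of these, Kdr was lowest in library 1 and Tie1 in library 3. The fibroblast sum followed Dcn, while 3 of the 5 fibroblast genes were highest in library 2. Of all genes tested, 30.7% were lowest in library 2. The part of any of these cell types in the counts of Scn7a was not tested.

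Scn10a, a channel of pain-sensing neurons whose locus is also linked to cardiac conduction, was present at a low level in all libraries. With 44, 48, 25 and 39 counts it stood at 3.05, 3.45, 2.38 and 2.54 CPM. The limits of the 4 libraries overlapped, and the mean was 2.85 ± 0.490 CPM (SD, n = 4). Its entry spans chr9:119608456-119719322 on the minus strand.

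Scn3a, a neuronal channel best known from the developing brain, had 27, 33, 23 and 28 counts. These amounted to 1.87, 2.37, 2.19 and 1.82 CPM, a mean of 2.06 ± 0.260 CPM (SD, n = 4). The limits of all libraries overlapped. The spread between libraries, 12.6% as a coefficient of variation (CV), was below the 19.1% that counting error alone would give at this level.

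Scn1a, a channel of brain interneurons and other central neurons, had 0 counts in each of the 4 libraries. Over the 54214421 gene counts of all libraries, a count of 0 allows up to 3 counts, or 0.0553 CPM. The nearest of the other 7 genes on chromosome 2 were detected: Scn3a lies 703 kilobases to one side of it (chr2:65457118-65567627) and Scn7a 233 kilobases to the other (chr2:66673425-66784914). Against the limit of 3 counts over the 4 libraries, Scn4a was at least 1982-fold higher per kilobase of exon than Scn1a, and Scn3a at least 33.1-fold higher.

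Markers of neurons were few and low in this RNA. The list of 11 summed to 7.35, 10.8, 7.13 and 8.85 CPM in libraries 1 to 4, with 2 genes at 1 CPM or more. These were the ubiquitin hydrolase Uchl1 (5.70 ± 0.831 CPM, SD, n = 4) and Dbh, the noradrenaline-making enzyme of sympathetic nerve (1.74 ± 0.545 CPM). Th, which makes the noradrenaline precursor, had 0 counts throughout. The part of nerve cells in the counts of Scn10a and Scn3a was not tested.

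Among the 3 beta subunits described, Scn4b was the most abundant. It encodes a subunit held to its alpha partner by a disulfide bond and known to promote resurgent current. Its counts were 196, 243, 125 and 222, or 13.6, 17.5, 11.9 and 14.5 CPM in libraries 1 to 4. Library 2 was highest and library 3 lowest, and the lower limit of library 2, 15.3 CPM, lay above the upper limit of library 3, 14.2 CPM. The mean was 14.3 ± 2.33 CPM (SD, n = 4), and Scn4b made up 88.0, 91.7, 87.1 and 87.3% of the summed level per kilobase of these 3 subunits.

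Scn2b, the other subunit bound by a disulfide, had 19, 12, 7 and 19 counts, or 1.32, 0.862, 0.665 and 1.24 CPM. Libraries 1 and 4 were above 1 CPM and libraries 2 and 3 below it, but the limits of all 4 overlapped. The mean was 1.02 ± 0.309 CPM (SD, n = 4), and 1.28 CPM without libraries 2 and 3. Its CV of 30.3% was close to the 27.2% of counting error alone.

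Scn3b, a subunit that associates without a covalent bond (chr9:40269217-40291618, plus strand), had 7, 10, 12 and 13 counts. That is 0.486, 0.718, 1.14 and 0.846 CPM, with overlapping limits and a mean of 0.798 ± 0.273 CPM (SD, n = 4). Only library 3 exceeded 1 CPM. Scn2b and Scn3b were the members just above and just below the mean of 1 CPM required for the test of spread described further on.

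**Figure D1:**
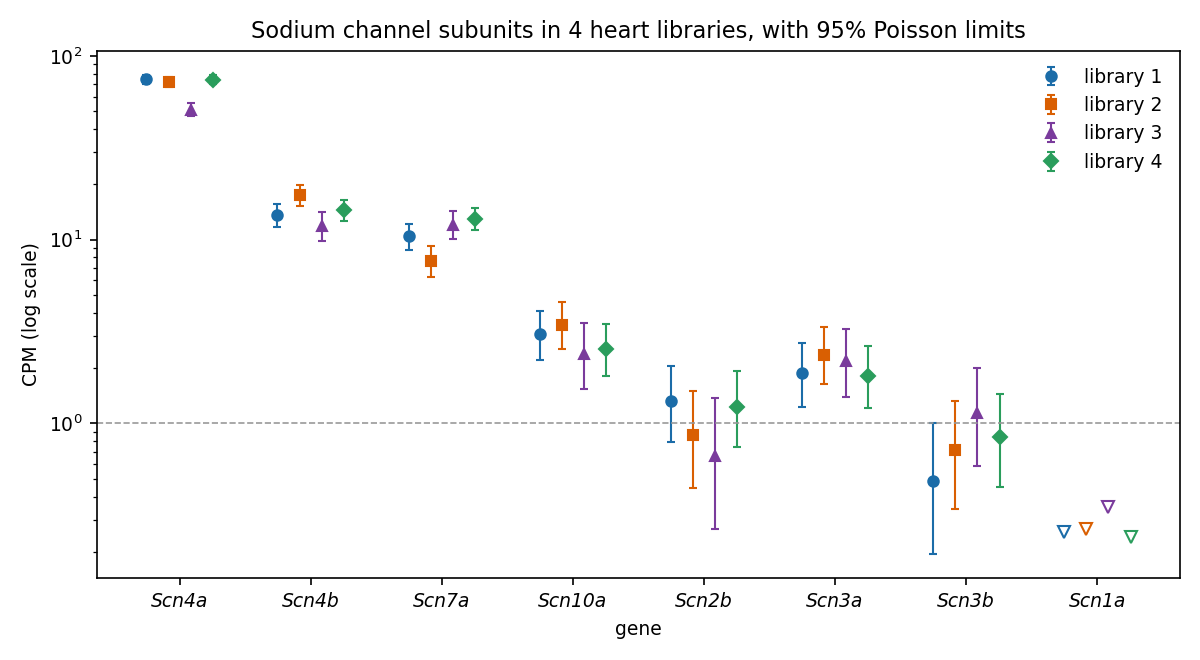
Points give CPM (log axis) of each gene in libraries 1 to 4 and bars the 95% Poisson limits; open triangles are upper limits for a count of 0 and the dashed line is 1 CPM. Scn4a sits at 51.0 to 74.4 CPM with library 3 lowest, and Scn1a has upper limits alone.

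Levels of different genes were compared per kilobase of merged exon, since longer transcripts collect more reads. On that scale the order was Scn4a (9.66 ± 1.61 CPM per kilobase, SD, n = 4), Scn4b (2.88 ± 0.468), Scn7a (1.47 ± 0.316), Scn10a (0.358 ± 0.0615), Scn2b (0.219 ± 0.0664), Scn3a (0.166 ± 0.0209), Scn3b (0.146 ± 0.04997) and Scn1a at 0. The first 4 steps went beyond the spread, with the same direction in 4 of 4 libraries and a mean log2 ratio above its SD. Scn4a exceeded Scn4b 3.34-fold (log2 ratio 1.74 ± 0.20, SD, n = 4) and Scn4b exceeded Scn7a 1.98-fold (0.98 ± 0.53). Scn7a exceeded Scn10a 4.03-fold (2.01 ± 0.56), and Scn10a exceeded Scn2b 1.63-fold (0.71 ± 0.45). Without libraries 2 and 3 the last log2 ratio was 0.33. In CPM, with no length, Scn4b over Scn7a was 0.42 ± 0.53, no longer beyond the spread.

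Below Scn10a the order was loose. Scn2b over Scn3a had a log2 ratio of 0.39 ± 0.59 and Scn3a over Scn3b one of 0.19 ± 0.46 (SD, n = 4), each higher in 2 of 4 libraries, so these neighbours did not differ beyond their spread. In libraries 1 to 4 the log2 ratio of Scn2b over Scn3a was 0.92, -0.0022, -0.23 and 0.87. Without libraries 2 and 3, whose sex-linked counts went against their label, it was 0.90. The cause of this split was not tested. The step from Scn3b down to Scn1a was at least 28.6-fold and was not tested, since Scn1a had no counts. The ratios were tested by flipping their signs over the 4 libraries, an exact two-sided permutation test whose smallest p is 0.13. The 4 upper steps had that smallest exact p (0.188 after Benjamini-Hochberg adjustment over 6 pairs), and the other 2 pairs had an exact p of 0.5. The pairs were neighbours in an order taken from the means of these same libraries, so the tests gave no independent support for it.

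As classes, the 5 alpha subunits summed to 12.5, 11.9, 9.37 and 12.8 CPM per kilobase in libraries 1 to 4 and the 3 beta subunits to 3.10, 3.82, 2.74 and 3.32. The beta sum was 0.248, 0.320, 0.292 and 0.260 times the alpha sum, lower in 4 of 4 libraries (mean log2 ratio of -1.84 with an SD of 0.17, n = 4; p = 0.13, exact permutation of signs). Library 2 had the highest ratio. These sums cover the 8 genes described and not every channel subunit of the heart.

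**Figure D2:**
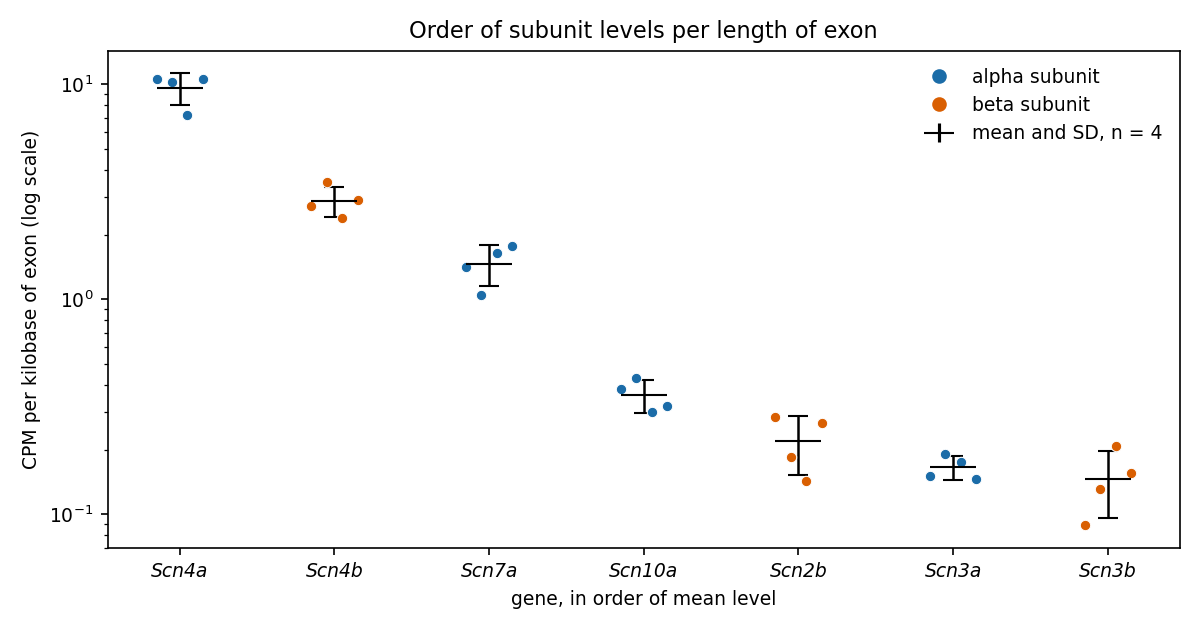
Points are CPM per kilobase of exon (log axis) in the 4 libraries for the 7 genes detected, and bars the mean and SD (n = 4). The means fall from 9.66 for Scn4a to 0.146 for Scn3b, and the points of Scn2b, Scn3a and Scn3b overlap.

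Each gene's spread between libraries was then compared with that of genes of similar abundance in edgeR's quasi-likelihood fit. Of 12358 genes tested, 55 were called more variable (0.445%, adjusted p under 0.05), and of the 6 subunits with a mean of at least 1 CPM none was called. Scn4a came nearest, with a variance 6.20 times the trend (edgeR, adjusted p = 0.589), and was the single member with an unadjusted p under 0.05. Over all genes tested, 6.00% had an unadjusted p under 0.05 in the same fit. Limma called 0 of the 6 and DESeq2 counted 0 of them as dispersion outliers. The ratio for Scn4a rested on library 3: without it, it was 0.0512, and without libraries 2 and 3 it was 0.0281.

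The subunits differed in how far their spread exceeded counting error. Scn7a had a variance ratio of 3.87 (edgeR, adjusted p = 0.877) and a CV of 21.5%, against 8.36% from counting alone. Scn4b had a ratio of 2.41 (edgeR, adjusted p = 0.978) and a CV of 16.3%, against 7.25%. Both rested in part on library 2: without it the ratios were 1.24 and 0.808. Without libraries 2 and 3 they were 2.96 and 0.214, and those of Scn2b and Scn3a were 0.0481 and 0.0178. The CV of Scn4a was 16.7%, against 3.33% from counting and a median of 6.12% over 1646 genes within 1.5-fold of its level. For Scn10a, Scn2b and Scn3a the ratios were 0.724, 0.869 and 0.349, so at this depth no spread beyond that of similar genes was detectable. The median log2 variance ratio of the 6 was 0.53, beside -0.23 over all genes tested, but its sign turned with single libraries. It was -0.061 without library 2 (all genes -0.41), -0.55 without library 3 (-0.40) and -3.30 without libraries 2 and 3 (-1.09). Without library 1 it rose to 1.55 and without library 4 to 1.70, each over 5 subunits (all genes -0.43 each time). With no filter on low counts it was -0.20 over 7 subunits (-0.37 over all genes).

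**Figure D3:**
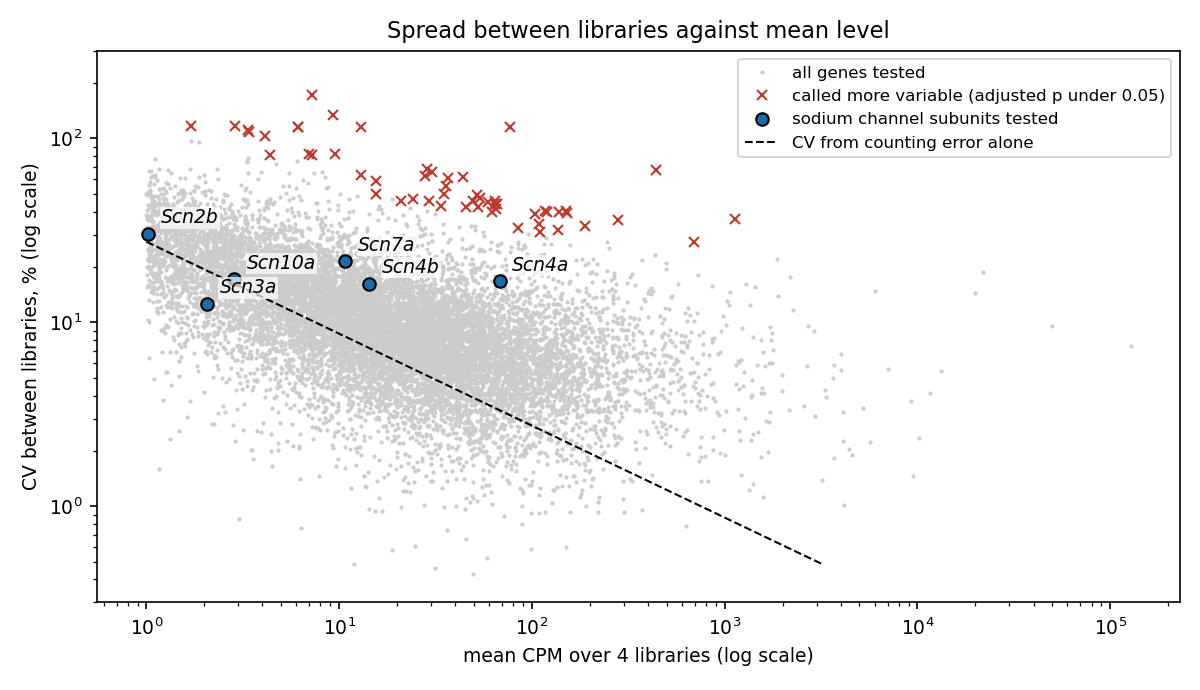
Each point is a gene tested, with its mean CPM and its CV between the 4 libraries in percent (log axes); crosses are the 55 genes called and the dashed line is the CV of counting error alone. The 6 subunits lie among the uncalled genes, with Scn4a, Scn4b and Scn7a well above the line, Scn2b and Scn10a just above it and Scn3a below it.

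The libraries did not rank alike for all subunits. Library 3 was lowest in Scn4a, Scn2b, Scn10a and Scn4b, as it was in 33.4% of all genes tested. Library 2 was highest in Scn4b, Scn10a and Scn3a, as in 28.5% of genes tested, and lowest in Scn7a, as in 30.7%. Library 3 was the least deep.

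The sum of conduction-system markers followed the libraries in the same sequence as Scn4b. Scn4b and Scn10a are both known from conduction fibres, and the list of 8 markers summed to 68.3, 86.4, 62.3 and 68.8 CPM in libraries 1 to 4, highest in library 2 and lowest in library 3. At least 1 CPM was reached by 6 of the 8. Singly, 5 of the 8 were highest in library 2 and 3 of the 8 were lowest in library 3. Gja5 and Shox2 were lowest in library 2, and Isl1 was at 0 there and in libraries 3 and 4. The leading markers were the repressor Tbx3 (25.9 ± 2.64 CPM, SD, n = 4) and the T-type calcium channel Cacna1g (19.4 ± 2.85 CPM). None of the 8 was at 0 throughout, and the sinus node factors Isl1 (1, 0, 0 and 0 counts) and Shox2 (4, 2, 3 and 5 counts) were near it. Of the genes tested, 13.2% had library 2 highest and library 3 lowest. The sum of the neuron list followed the libraries in the sequence of Scn4b too, with Uchl1 (5.70 CPM) making up most of it. Of the 9 neuron genes detected, 6 were highest in library 2 and 2 were lowest in library 3. The part of conduction tissue or nerve in the values of Scn4b was not tested.

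**Figure D4:**
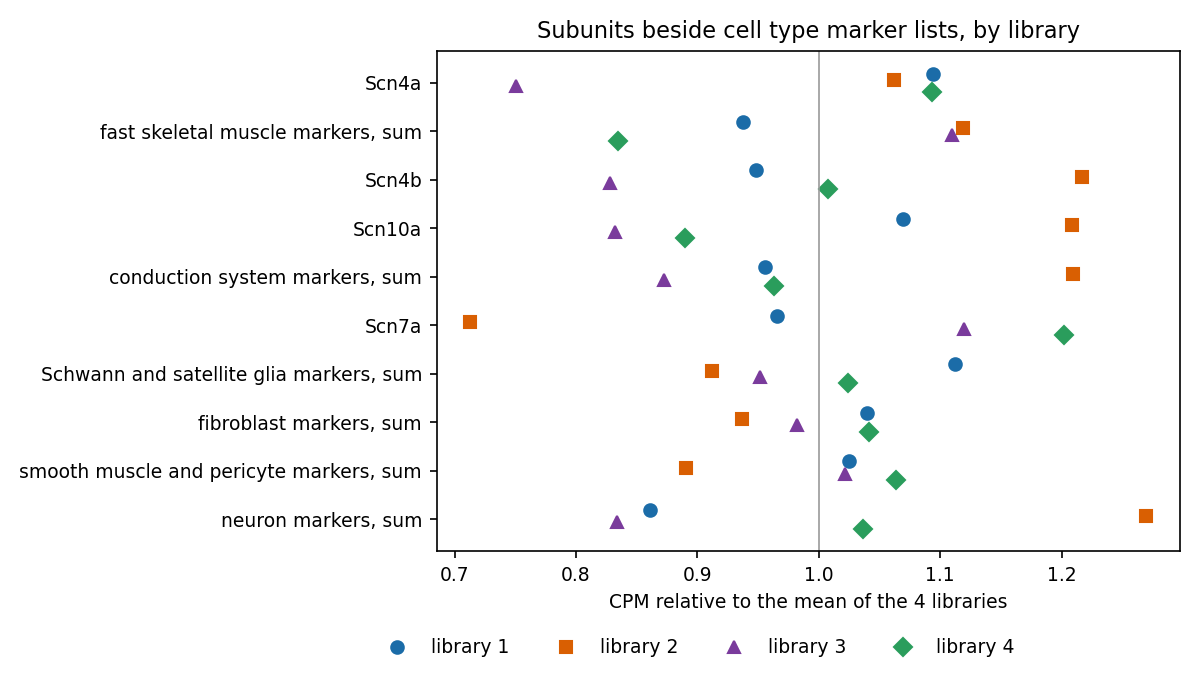
Points are CPM in libraries 1 to 4 divided by the mean of the 4, for subunits and for summed marker lists, with libraries set apart vertically so that none is hidden. Library 2 is highest in Scn4b, Scn10a and the sums of conduction and neuron markers, and lowest in Scn7a and the sums of the glial, fibroblast and smooth muscle lists.

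By a fixed rule, the 3 genes closest to each of the leading subunits in their pattern over the libraries were listed, by the root-mean-square difference of centred log2 CPM. For Scn4a these were Nos2 (0.018), Tceanc2 (0.019) and Rnft1 (0.023). For Scn4b they were Sox7 (0.015), Hcls1 (0.016) and Ss18l1 (0.017), and for Scn7a Lcorl (0.025), Pde5a (0.030) and Sgol2 (0.035). With 4 libraries of 1 group such matches are common: 317 of 12350 genes were within 0.1 of Scn4a, 454 of Scn4b and 90 of Scn7a.

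Genes of proteins that anchor sodium channels ranged from 0 counts throughout, in the adhesion gene Cntn1, to 388 CPM. Of 20 partners and scaffolds 16 reached 1 CPM, and 0 of 16 tested were called more variable in edgeR, with 1 at an unadjusted p under 0.05. Over all 12358 genes tested, 0.445% were called and 6.00% had an unadjusted p under 0.05, so these counts set the list apart in neither direction. Its sum was 1497 to 1536 CPM over the libraries. The list was led by the disc proteins Gja1 (388 ± 50.6 CPM, SD, n = 4) and Cdh2 (372 ± 25.7 CPM) and by the ankyrins Ank2 (169 ± 6.63 CPM) and Ank3 (129 ± 6.32 CPM), which tether channels to the cytoskeleton. Of the fibroblast growth factor homologous factors, which bind the channel's tail and tune inactivation, Fgf13 had 256, 258, 209 and 336 counts and Fgf12 1, 1, 5 and 7. Cntn1, Fgf12 and Fgf13 were chosen after their values were seen. Fgf13 stood at 19.5 ± 1.80 CPM and Fgf12 at 0.268 ± 0.228 CPM (SD, n = 4).

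Enzymes that modify the channel were present without exception in the list: 17 of 17 reached 1 CPM, and 0 of 17 were called, with 2 at an unadjusted p under 0.05 (edgeR), against the shares of 0.445% and 6.00% over all genes. The ubiquitin ligase Nedd4 (466 ± 11.0 CPM, SD, n = 4) and Prkaca, the catalytic subunit of protein kinase A (412 ± 15.5 CPM), led, followed by the deubiquitinase Usp2 (269 ± 39.9 CPM) and the calmodulin gene Calm3 (260 ± 18.6 CPM). Transcription factors of conduction and sodium channel genes reached 1 CPM in 12 of 12 cases, led by Gata4 (152 ± 5.41 CPM), Tbx20 (82.8 ± 6.25 CPM), Mef2c (57.5 ± 7.27 CPM) and Tbx5 (53.8 ± 1.40 CPM). None of the 12 was called, and 0 had an unadjusted p under 0.05 (edgeR), against the same shares of 0.445% and 6.00% over all genes.

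Other routes of sodium across the membrane were measured for scale, as CPM and not per length. A list of 10 included the pump regulator Fxyd1 (469 ± 14.6 CPM, SD, n = 4) and the sodium-calcium exchanger Slc8a1 (407 ± 20.6 CPM). Of these 10, 7 reached 1 CPM. In edgeR 0 of the 7 were called and 0 had an unadjusted p under 0.05, against the shares of 0.445% and 6.00% over all genes. The epithelial sodium channel subunit Scnn1g had 0 counts in all 4 libraries.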

How the data were processed

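Polyadenylated RNA of 4 heart libraries was sequenced as single-end reads without strand, per the labels' protocols. The authors deposited 1 table per library of raw read counts by gene symbol. HTSeq, TopHat, Bowtie2, edgeR, DESeq and TopHat2 2.0.10 are named without roles in the submitters' processing notes, with the mm10 build. The gene models and how HTSeq was set are not given in these sources. The 5 rows that name no gene were left out: they held 8.96 to 9.30% of listed reads, mostly alignments that were not unique, so reads shared by similar channel genes may drop out. No source says that each library is a separate animal, and sex-linked counts show only that the 4 did not all come from 1 animal, so part of the spread behind the p-values may be technical.

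CPM used the total of gene counts (Python 3.11.15). Lengths, positions and overlaps came from GENCODE M21, windows from RefSeq. Spread was tested with edgeR 4.0.16 in R 4.3.3: intercept only, TMM factors, robust quasi-likelihood prior, genes with a mean TMM-scaled CPM of at least 1, variance ratio against F on 3 and 7.42 degrees of freedom, Benjamini-Hochberg over 12358 genes, checked on simulated counts. Ratios between genes had 0.5 added to each count. The members and gene lists (4 partner and 10 marker lists) were chosen with earlier results of these data known. All 8 members were named, as were the 4 most abundant and any called genes of each partner list and the 2 most abundant and any at 0 of the marker lists set beside a member; of the other marker lists, which the rule also covers, the sums alone are given. Endothelial and macrophage markers summed to 934 ± 14.9 and 207 ± 11.8 CPM and atrial markers to 143 ± 7.82 CPM (SD, n = 4). Other family entries, and some genes that the rule would name, are not reported here. Alternatives were other scaling, filters, priors, tools (limma 3.58.1, DESeq2 1.42.0), lengths, totals and libraries left out.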

Additional observations from a re-analysis of the deposited data

Results flagged for a closer look

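Scn4a in library 3 stood apart from the other libraries. Its 51.0 CPM lay below the 72.2 to 74.4 CPM of libraries 1, 2 and 4, a gap that takes up most of the range of the 4 values. The summed level of the 8 subunits was 105.1, 104.7, 81.3 and 108 CPM in libraries 1 to 4, and library 3, at 81.3 CPM, stood apart in the same way because Scn4a makes up most of the sum. Chance marks about 1 in 20 groups of 4 by this measure, and 9 were examined. Library 3 was also the least deep, with 10523709 gene counts, and its sex-linked transcripts went against its label. The part of either in the value was not tested.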

How the results depend on the processing

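No paired analysis was possible because the series has 1 group. The order of the 8 subunits per kilobase was the same 8 places with the longest transcript as length, without each library in turn (8 to 8 places) and without libraries 2 and 3. In CPM with no length 6 places held, as Scn2b over Scn3a turned to a log2 ratio of -1.03, and Scn4b over Scn7a fell within its spread. The beta over alpha log2 ratio lay between -1.98 and -1.79 with libraries left out. The summed level was 97.1 to 107 CPM with libraries left out and moved to 114.5 CPM with the ribosomal precursor Rn45s left out of the total. The number of subunits called more variable was 0 in all settings run, while the number of all genes called was 258 with no filter on low counts, 10 with a prior that was not robust, 129 as dispersion outliers of DESeq2, 6 without libraries 2 and 3, and 39 to 69 without a single library; the cause was not tested. The adjusted p of Scn4a ran from 0.174 with no filter to 0.999 without libraries 2 and 3 (edgeR). Depth limits the rarer subunits: 42 counts of Scn3b and 57 of Scn2b in all leave CVs near those of counting error.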
